A study of Mus musculus with 20 samples.

Results

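G3bp1, G3bp2, Caprin1, Tia1, Tial1, Hnrnpa2b1, Fmr1, Pabpc1 and Ddx6 encode proteins that collect in cytoplasmic RNA granules, and they are described here across the hippocampus and cortex of chaperone-treated mice. They were chosen by name and found by matching Ensembl identifiers to mouse symbols, 9 of the 55487 gene entries in each library. All 9 had reads in all 20 libraries and passed the filter on low counts in every comparison. The libraries hold poly(A)-selected RNA of NMRI mice, an outbred stock. The olfactory bulbs of every animal had been removed, an operation used to model sporadic Alzheimer's disease. From day 14 after surgery the animals received daily intranasal recombinant protein for 21 days, either YB-1 at 6.4 µg or human HSP70 at 4 µg. The 4 groups of 5 libraries are hippocampus with YB-1, hippocampus with HSP70, cortex with YB-1 and cortex with HSP70. All groups share the surgery and a chaperone, and unoperated or vehicle-treated animals were not analysed here, so YB-1 was only compared with HSP70, and a higher value with YB-1 is equally a lower value with HSP70. The labels give no age and do not name the animal behind a library.

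RNA granules are membraneless assemblies of messenger RNA and RNA-binding proteins. Stress granules form when translation initiation stalls, commonly after phosphorylation of eIF2, and hold stalled initiation complexes. Processing bodies hold decapping and decay factors and repressed messages, and in neurons related transport granules carry messages into dendrites and axons for local translation. YB-1 is itself an RNA-binding protein of such particles, and HSP70 is a chaperone known to act in stress granule disassembly. Granules form from proteins already present in the cell, so transcript levels say nothing on how many granules there were.

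Total assigned reads were 7236195 to 10166968 in YB-1 hippocampus, 7756835 to 13053910 in HSP70 hippocampus, 6414215 to 10763465 in YB-1 cortex and 12283392 to 15148078 in HSP70 cortex. The cortical treatment groups did not overlap in depth, so any difference in preparation or sequencing that goes with depth cannot be told apart from treatment there. The tissue labels fitted their markers. Summed over 5 dentate granule cell markers, CPM (read counts scaled to a common library total, with TMM factors) were 138 to 265 in hippocampal libraries and 21.8 to 45.4 in cortical libraries, and 6 cortical projection neuron markers summed to 116 to 177 CPM in hippocampus and 386 to 486 CPM in cortex. Some other marker sums varied widely within a group. Choroid plexus markers (5 genes) summed to 34.3 to 1595 CPM and thalamic markers (4 genes) to 67.8 to 297 CPM in HSP70 hippocampus. Striatal markers (5 genes) summed to 151.7 to 628.5 CPM in YB-1 cortex. The part of these sums in the spread between libraries was not tested. Bc1 is a small untranslated RNA found in dendrites, and between 3.92% and 20.8% of the assigned reads of a library came from it. Libraries with equal numbers in hippocampus and cortex deviated from their group means together and were taken as pairs. That a pair comes from 1 animal is an assumption. In bulk tissue, fewer cells of a type and less RNA per cell cannot be told apart.

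The upstream sequences of 4 members are shown because G3bp1 stood apart from the others in hippocampus, in the pattern described below. Caprin1, Hnrnpa2b1 and Fmr1 were positively correlated between libraries. In hippocampus the Pearson r of G3bp1 was -0.50 with Caprin1, -0.01 with Hnrnpa2b1 (Spearman's rho 0.04) and -0.33 with Fmr1. Its r was 0.14 with Tial1 and 0.00 with Tia1, whose sequences are not shown, so the contrast does not hold for every member. In cortex the correlations of G3bp1 with Caprin1, Hnrnpa2b1 and Fmr1 were positive, with Pearson r from 0.235 to 0.467. The sequences are RefSeq, build GRCm38.p6, on the strand of the gene and 5′ to 3′, and end at the start of transcription or where GENCODE places an exon of the same gene. Where the table lists several starts the one farthest upstream was taken. Capitals mark GGGCGG and CCAAT on either strand. The counts were made on GRCm39, so the coordinates only locate the sequences. G3bp1 is shown from chr11:55469502-55469684 on the plus strand, Caprin1 from chr2:103797105-103797328 on the minus strand, Hnrnpa2b1 from chr6:51469895-51470144 on the minus strand and Fmr1 from chrX:68678291-68678540 on the plus strand.
G3bp1: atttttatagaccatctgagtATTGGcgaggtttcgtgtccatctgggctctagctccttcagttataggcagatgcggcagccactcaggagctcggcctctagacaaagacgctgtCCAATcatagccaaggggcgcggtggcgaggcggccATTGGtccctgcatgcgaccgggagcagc
Caprin1: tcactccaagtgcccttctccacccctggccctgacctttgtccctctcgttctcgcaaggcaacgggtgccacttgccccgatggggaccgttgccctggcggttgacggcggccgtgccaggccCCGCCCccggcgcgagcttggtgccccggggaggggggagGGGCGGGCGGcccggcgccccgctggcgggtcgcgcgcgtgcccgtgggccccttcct
Hnrnpa2b1: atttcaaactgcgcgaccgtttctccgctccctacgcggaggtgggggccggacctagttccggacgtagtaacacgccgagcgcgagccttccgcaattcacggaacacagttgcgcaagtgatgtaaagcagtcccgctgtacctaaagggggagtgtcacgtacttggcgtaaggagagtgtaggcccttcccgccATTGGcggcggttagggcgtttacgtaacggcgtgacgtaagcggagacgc
Fmr1: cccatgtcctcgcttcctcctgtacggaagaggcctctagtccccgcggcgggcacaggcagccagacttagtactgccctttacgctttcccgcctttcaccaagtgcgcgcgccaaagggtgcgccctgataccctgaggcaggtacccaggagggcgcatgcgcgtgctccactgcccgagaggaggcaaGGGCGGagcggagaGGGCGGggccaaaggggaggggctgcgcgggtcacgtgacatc

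In the full windows of 250 bases before the start, G3bp1 had 1 GGGCGG and 3 CCAAT matches, and Caprin1 had 4 GGGCGG matches, of which neighbouring ones overlap, and no CCAAT match. Fmr1 had 2 GGGCGG and no CCAAT match, and Hnrnpa2b1 had 1 CCAAT match and no GGGCGG. Of 32851 windows of the same length, 32.7% held GGGCGG and 33.8% held CCAAT on either strand. The 4 windows were rich in CG dinucleotides, with 25 in G3bp1, 31 in Caprin1, 29 in Hnrnpa2b1 and 21 in Fmr1, against a median of 6 over all windows. GC content was 62% in G3bp1, 78% in Caprin1, 59.6% in Hnrnpa2b1 and 67.2% in Fmr1, against a median of 52.4%. Entries were also found for G3bp2, Tial1 and Tia1, which makes 7 of 9, leaving Pabpc1 and Ddx6. Tia1 had neither motif, 8 CG dinucleotides and 44% GC. G3bp2 also had neither motif, but 24 CG dinucleotides and 73.6% GC. Tial1 had 2 GGGCGG and no CCAAT match, 22 CG dinucleotides and 58.8% GC.

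Levels of the 9 transcripts spanned a wide range. Per length of merged exons, as RPKM from TMM-scaled counts over all 20 libraries, Pabpc1 was highest at 21.6 ± 5.24 (SD, n = 20), followed by G3bp2 at 17.3 ± 2.68 and Hnrnpa2b1 at 11.8 ± 2.99. Pabpc1 encodes the main cytoplasmic poly(A)-binding protein. G3bp1 at 6.79 ± 0.80 RPKM and Caprin1 at 6.63 ± 1.23 RPKM could not be ordered, with G3bp1 higher in 10 of 20 libraries. Ddx6 followed at 4.79 ± 1.48 RPKM. Tial1 at 1.68 ± 0.40, Fmr1 at 0.856 ± 0.371 and Tia1 at 0.498 ± 0.140 RPKM were lowest. Every other neighbour in this order kept its place in 18 to 20 of 20 libraries within a library, although the ranges of neighbours over libraries overlapped. The order by group mean was the same in all 4 groups. It depends on the length used: divided by the longest transcript, Caprin1 at 11 RPKM stood above G3bp1 at 7.16 RPKM, and Tia1 at 1.75 RPKM and Fmr1 at 1.74 RPKM were level.

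No difference between YB-1 and HSP70 was detected for any of the 9 transcripts, in hippocampus or in cortex. With edgeR's quasi-likelihood test and Benjamini-Hochberg adjustment over all genes tested, 0 of 9 passed an adjusted p of 0.05 in hippocampus, where 0% of 13723 genes were called, and 0 of 9 in cortex, where 0% of 14114 genes were called. At an unadjusted p under 0.05 there were 0 of 9 in either tissue, against 2.4% of all genes in hippocampus and 5.48% in cortex. DESeq2 and limma-voom also called 0 of 9, and over all genes called 0 and 0 in hippocampus and 4 and 1 in cortex. In no member did the treatment groups separate, which 0.474% of genes did in hippocampus and 0.829% in cortex. The difference between the tissues in the treatment effect, the interaction, passed edgeR's test for 0 of 9 members and 0% of 14616 genes, with all adjusted p at 1 and 0 of 9 at an unadjusted p under 0.05, against 1.55% of genes.

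**Figure D1:**
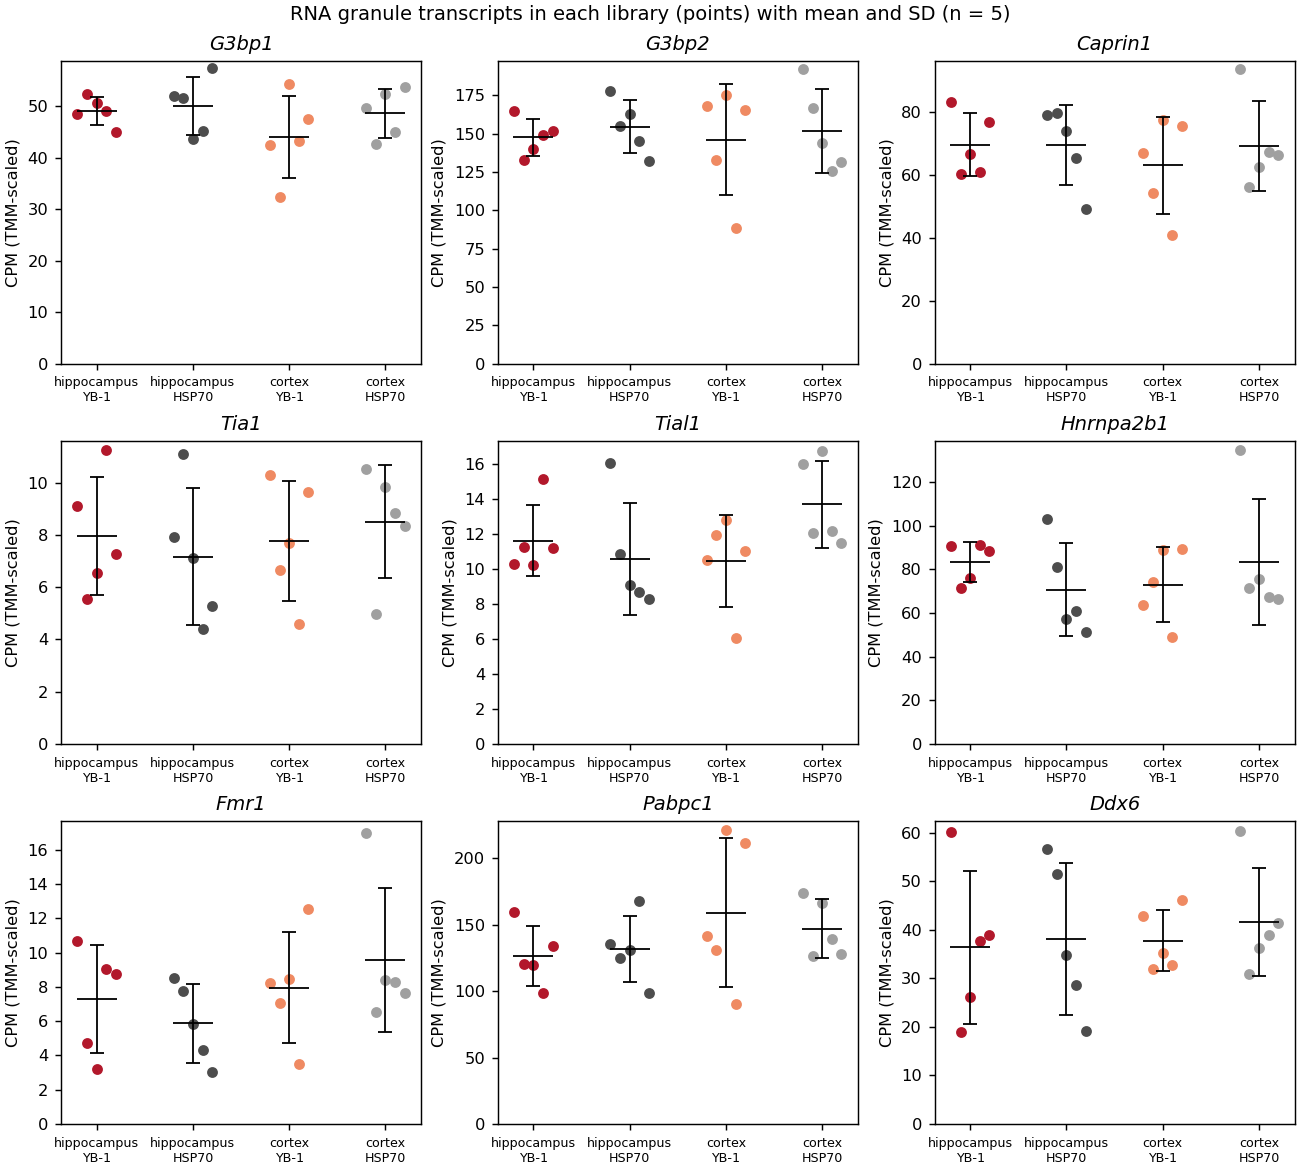
TMM-scaled CPM (vertical axis, from 0) of each RNA granule transcript in the 20 libraries (points, in order of replicate number), with group means (long bars) and SD (capped bars, n = 5 each). The YB-1 and HSP70 libraries overlap in every panel, and HSP70 cortex replicate 1 stands at 134 CPM for Hnrnpa2b1 and 17.0 CPM for Fmr1.

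G3bp1 and G3bp2 encode the proteins around which stress granules assemble, and Caprin1 encodes their binding partner. G3bp1 had 48.6, 52.4, 50.7, 49.1 and 45.1 CPM in YB-1 hippocampus, against 52.1, 51.7, 43.7, 45.3 and 57.6 CPM in HSP70 hippocampus. In cortex it had 42.5, 32.4, 54.4, 43.3 and 47.5 CPM with YB-1, against 49.7, 42.7, 52.5, 45.0 and 53.8 CPM with HSP70. The YB-1 values in hippocampus lay inside the HSP70 range, and in cortex 2 YB-1 libraries were below and 1 above the HSP70 range. The log2 fold change of G3bp1, YB-1 over HSP70, was -0.02 ± 0.12 (SE; 95% interval -0.28 to 0.23) in hippocampus and -0.15 ± 0.15 (-0.46 to 0.16) in cortex. Its interval in hippocampus, a ratio of 0.822 to 1.18, was the second narrowest of the 9, after that of G3bp2.

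G3bp2 averaged 147.7 ± 12.1 CPM in YB-1 hippocampus and 154.6 ± 17.2 CPM in HSP70 hippocampus (SD, n = 5 each), a log2 fold change of -0.06 ± 0.11 (SE; -0.31 to 0.18). In cortex it averaged 146.2 ± 36.0 CPM with YB-1 and 152.0 ± 27.4 CPM with HSP70, a log2 fold change of -0.06 ± 0.18 (SE; -0.44 to 0.32). The larger YB-1 spread in cortex included replicate 4 at 88.7 CPM, the shallowest library. No shift between the 2 G3BP transcripts was detected either. The log2 ratio of G3bp2 to G3bp1 counts was 1.58 ± 0.18 with YB-1 and 1.63 ± 0.26 with HSP70 in hippocampus, and 1.71 ± 0.40 with YB-1 and 1.63 ± 0.31 with HSP70 in cortex (SD, n = 5 each). Neither difference passed a two-sided exact permutation test (p = 0.794 in hippocampus and 0.714 in cortex, both 0.982 after adjustment over the 6 ratio tests; the smallest p the design allows is 0.00794).

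Caprin1 had 83.2, 60.3, 66.7, 60.9 and 76.8 CPM in YB-1 hippocampus, against 79.1, 79.7, 74.0, 65.2 and 49.1 CPM in HSP70 hippocampus. In cortex it had 66.9, 54.1, 77.5, 40.9 and 75.6 CPM with YB-1, against 93.5, 56.0, 62.6, 67.1 and 66.3 CPM with HSP70. Libraries of a group differed by up to 1.89-fold while the ranges of the groups overlapped. The log2 fold change was 0.00 ± 0.15 (SE; -0.32 to 0.33) in hippocampus and -0.13 ± 0.18 (-0.51 to 0.24) in cortex.

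Tia1 and Tial1 encode paralogous proteins with prion-like domains that bind U-rich RNA and repress translation. Tial1 had 10.3, 11.2, 10.3, 15.2 and 11.2 CPM in YB-1 hippocampus, against 16.1, 10.8, 9.07, 8.69 and 8.27 CPM in HSP70 hippocampus. In cortex it had 10.5, 11.9, 12.8, 6.06 and 11 CPM with YB-1, against 16.0, 12.1, 16.8, 12.2 and 11.5 CPM with HSP70. In cortex 3 of 5 YB-1 libraries lay below the lowest HSP70 library, and the ranges still overlapped. The log2 fold change of Tial1 was 0.13 ± 0.22 (SE; -0.34 to 0.60) in hippocampus and -0.38 ± 0.21 (-0.82 to 0.06) in cortex. The hippocampal value was 0.01 without YB-1 replicate 4 and 0.33 without HSP70 replicate 1. The cortical value had the lowest treatment p of the 9 members, with an unadjusted p of 0.0852 and an adjusted p of 0.858 by edgeR. The interaction for Tial1 was 0.51 ± 0.30 (SE; -0.11 to 1.13; edgeR unadjusted p = 0.103, adjusted p = 1).

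Tia1, with 25 to 152 reads per library, averaged 7.94 ± 2.25 CPM in YB-1 hippocampus and 7.16 ± 2.62 CPM in HSP70 hippocampus, and 7.76 ± 2.30 CPM in YB-1 cortex and 8.50 ± 2.15 CPM in HSP70 cortex (SD, n = 5 each). Its log2 fold change was 0.15 ± 0.28 (SE; -0.45 to 0.75) in hippocampus and -0.12 ± 0.25 (-0.64 to 0.40) in cortex, and the hippocampal interval is a ratio of 0.734 to 1.68. The log2 ratio of Tial1 to Tia1 counts in cortex was 0.44 ± 0.34 with YB-1 and 0.71 ± 0.34 with HSP70 (SD, n = 5 each; two-sided exact permutation p = 0.238, adjusted 0.982). In hippocampus it was 0.58 ± 0.31 with YB-1 and 0.59 ± 0.44 with HSP70 (exact permutation p = 0.944, adjusted 0.982).

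Hnrnpa2b1 encodes a nuclear RNA-binding protein that also carries messages in neuronal transport granules. It had 90.5, 71.3, 75.8, 91.1 and 88.2 CPM in YB-1 hippocampus, against 103, 80.9, 57.0, 61.0 and 51.1 CPM in HSP70 hippocampus. In cortex it had 63.6, 74.0, 88.9, 49.0 and 89.0 CPM with YB-1, against 134, 71.6, 75.7, 67.4 and 66.6 CPM with HSP70. In hippocampus 3 HSP70 libraries lay below every YB-1 library and 1 lay above them all. The log2 fold change was 0.24 ± 0.18 (SE; -0.14 to 0.62) in hippocampus and -0.19 ± 0.21 (-0.62 to 0.24) in cortex. The hippocampal value was 0.14 without HSP70 replicate 5 and 0.42 without HSP70 replicate 1, the highest library of that group. The cortical sign rested on HSP70 replicate 1, without which the value was 0.05.

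Fmr1 encodes FMRP, a repressor of translation on neuronal messages whose loss causes fragile X syndrome. It had 10.7, 4.71, 3.20, 9.07 and 8.77 CPM in YB-1 hippocampus, against 8.51, 7.79, 5.81, 4.31 and 3.0 CPM in HSP70 hippocampus. In cortex it had 8.22, 7.05, 8.49, 3.49 and 12.6 CPM with YB-1, against 17.0, 6.54, 8.43, 8.28 and 7.62 CPM with HSP70. The spread within each group exceeded the distance between group means. The log2 fold change of Fmr1 was 0.31 ± 0.35 (SE; -0.44 to 1.06) in hippocampus and -0.25 ± 0.30 (-0.89 to 0.38) in cortex, the widest intervals of the 9, the hippocampal one a ratio of 0.738 to 2.09. The hippocampal value was 0.13 without YB-1 replicate 1, 0.50 without YB-1 replicate 3 and 0.07 with limma-voom. Without HSP70 replicate 1 the cortical value was 0.06.

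Pabpc1 averaged 126.4 ± 22.4 CPM in YB-1 hippocampus and 131.4 ± 24.8 CPM in HSP70 hippocampus (SD, n = 5 each), a log2 fold change of -0.05 ± 0.16 (SE; -0.39 to 0.28). In cortex it had 142, 131, 221, 90.0 and 212 CPM with YB-1, against 174, 127, 166, 140 and 128 CPM with HSP70, a log2 fold change of 0.11 ± 0.20 (SE; -0.32 to 0.54). The YB-1 cortex libraries held both the highest values and the lowest value of that tissue. In cortex Pabpc1 was above 0 and the other 8 members below, with a median over the 9 of -0.14 on the log2 scale, against 0.01 over all genes tested, of which 49.1% were below 0. The count was not stable: 4 of 9 were below 0 without HSP70 replicate 1, with a median of 0.03, and 4 of 9 with limma-voom. It was 6 of 9 without YB-1 replicate 4, and 9 of 9 without YB-1 replicate 3, without YB-1 replicate 5 and with the log2 Bc1 share as a covariate, chosen after seeing the data. In hippocampus 5 of 9 were above 0, against 49.3% of genes, and the median was 0.00.

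Ddx6 encodes a helicase needed for processing bodies. It had 60.1, 18.9, 26.1, 37.8 and 38.9 CPM in YB-1 hippocampus, against 56.7, 51.4, 34.7, 28.6 and 19.2 CPM in HSP70 hippocampus. Both groups ran from about the same lowest to about the same highest value. In cortex it averaged 37.7 ± 6.31 CPM with YB-1 and 41.6 ± 11.2 CPM with HSP70 (SD, n = 5 each). The log2 fold change was -0.07 ± 0.32 (SE; -0.77 to 0.63) in hippocampus and -0.14 ± 0.18 (-0.52 to 0.23) in cortex. Beside the cortical comparisons, the summed CPM of 6 GABAergic neuron markers ran from 511 to 603 with YB-1 and from 699 to 886 with HSP70. In hippocampus the summed CPM of 5 endothelial markers ran from 176.5 to 191.2 with YB-1 and from 131.3 to 174.2 with HSP70. Of all marker sets only these had separate treatment ranges, which 0.829% of single genes had in cortex and 0.474% in hippocampus. In the other tissue both overlapped. GABAergic sums in hippocampus were 389 to 557 CPM with YB-1 and 449 to 630 CPM with HSP70. Endothelial sums in cortex were 185 to 234 CPM with YB-1 and 172 to 264 CPM with HSP70. The part of these sums in the treatment values was not tested.

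**Figure D2:**
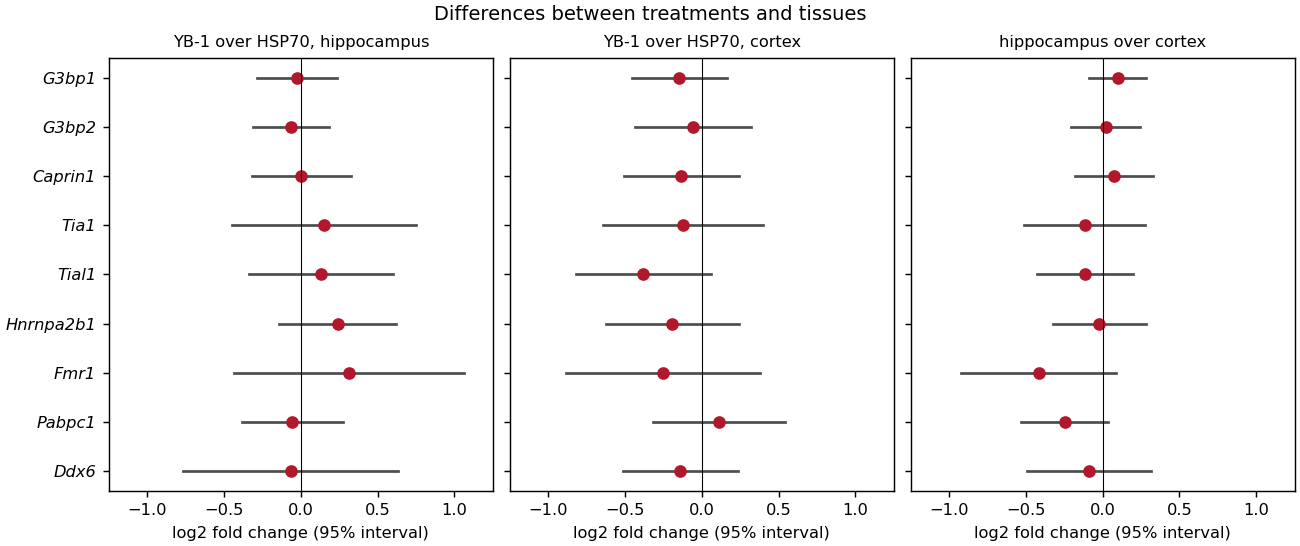
Log2 fold changes (points) and 95% intervals (lines) from edgeR for the 9 transcripts, YB-1 over HSP70 in hippocampus (left) and cortex (middle) and hippocampus over cortex (right). Every interval crosses 0, and Fmr1 has the widest interval in each panel.

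No difference between hippocampus and cortex was detected in any member either, although the tissues differed in many other genes. By edgeR 0 of 9 members passed an adjusted p of 0.05, against 15.9% of 14616 genes, and 0 of 9 reached an unadjusted p under 0.05, against 26.8% of genes. That fit did not pair the libraries by number. With the replicate number as a block, edgeR called 0 of 9 members and 19.8% of genes. DESeq2 and limma-voom called 0 of 9 members and 2650 and 2854 genes. No member had separate ranges in hippocampus and cortex, which 3.01% of genes had. G3bp1 averaged 49.6 ± 4.18 CPM in hippocampus and 46.4 ± 6.69 CPM in cortex (SD, n = 10 each), a log2 fold change of 0.10 ± 0.09 (SE; -0.09 to 0.29). This interval, a ratio of 0.939 to 1.22, was the narrowest of the tissue comparison.

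The largest tissue differences among the members were those of Fmr1 and Pabpc1, both with lower means in hippocampus. Fmr1 averaged 6.59 ± 2.72 CPM in hippocampus and 8.76 ± 3.65 CPM in cortex (SD, n = 10 each), a log2 fold change of -0.42 ± 0.25 (SE; -0.92 to 0.09; edgeR adjusted p = 0.303), and was higher in hippocampus in 3 of 10 pairs of libraries with the same treatment and replicate number. Pabpc1 averaged 128.9 ± 22.5 CPM in hippocampus and 153.0 ± 40.6 CPM in cortex, a log2 fold change of -0.25 ± 0.14 (SE; -0.53 to 0.04; edgeR adjusted p = 0.265), likewise higher in hippocampus in 3 of 10 pairs. With the log2 share of Bc1 as a covariate, chosen after seeing the data, the Pabpc1 value was -0.31 and passed edgeR's test with an adjusted p of 0.0210. That fit called 24.7% of 14616 genes, and 1 of 9 members. The 6 neuron markers summed to 1864 to 2441 CPM in hippocampal and 2499 to 3268 CPM in cortical libraries. Sums over 6 oligodendrocyte markers went the other way, with 3673 to 6826 CPM in hippocampus and 1359 to 2499 CPM in cortex. The part of either in the tissue values was not tested. The 7 other members lay between -0.12 and 0.10 on the log2 scale.

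No relation was detected between the level of a member in hippocampus and in the cortical library of the same treatment and replicate number. Over the 10 pairs, after removal of group means, Pearson's r ranged from -0.43 for Tia1 to 0.46 for Hnrnpa2b1, and 0 of 9 passed an exact permutation test adjusted over all genes, as did 0 of 14616 genes, whose median r was 0.24. For Hnrnpa2b1 the exact permutation p was 0.235 (adjusted 0.712), with Spearman's rho 0.24 (exact permutation p = 0.563, adjusted 0.915), and r was -0.28 without the 2 pairs farthest from the median. For Tia1 the exact permutation p was likewise 0.235 (adjusted 0.712), with rho -0.09 (exact permutation p = 0.816, adjusted 0.971) and r of -0.15 without the 2 farthest pairs.

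The members differed in how much they varied between libraries of a group. G3bp1 had a coefficient of variation of 5.52% in YB-1 hippocampus, 11.2% in HSP70 hippocampus, 18.2% in YB-1 cortex and 9.78% in HSP70 cortex. Among genes with a mean of 5 CPM or more, this placed it at the 1.71, 14.5, 38.4 and 13.7 percentile. With 1 library left out these ran from 3.37% to 6.37%, from 8.94% to 12.9%, from 11.5% to 20.9% and from 7.74% to 11.3% in the same groups, and the percentile reached 58.2 in cortex without YB-1 replicate 4 and 44.3 without HSP70 replicate 1. Fmr1 had 43.6%, 39.2%, 40.8% and 44.0% in the same groups, the 94.8, 90.2, 93.6 and 97.1 percentile. The HSP70 cortex value rested on replicate 1, without which it was 11.2%, the 43.8 percentile, while in the other 3 groups Fmr1 kept at least 26.4% with any 1 library left out. Counting error alone would give Fmr1, with 19 to 245 reads per library, 9.31% to 14.9%. Ddx6 varied by 43.1% and 41.0% in the hippocampal groups with YB-1 and HSP70, and by 16.7% and 26.9% in the cortical groups, the last being 12.2% without HSP70 replicate 1. Over all 20 libraries the highest value was 5.65 times the lowest for Fmr1, 3.20 times for Ddx6 and 1.78 times for G3bp1.

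Most members varied together from library to library, G3bp1 least. Over the 10 libraries of a tissue, after removal of group means, the median Pearson r over the 36 pairs of members was 0.57 in hippocampus and 0.75 in cortex, while over all pairs of the genes tested it was 0.00 in either tissue. A value above 0.5 was found in 58.3% of the 36 pairs in hippocampus and 72.2% in cortex, against 15.4% and 16.7% of all gene pairs. The highest were G3bp2 with Ddx6 at 0.92 in hippocampus and Caprin1 with Fmr1 at 0.94 in cortex. The 8 pairs with G3bp1 had a median of -0.32 in hippocampus and 0.31 in cortex, and the 28 pairs without it 0.66 and 0.78. Pabpc1 with Tia1 and with Tial1 was also below 0 in hippocampus, at -0.19 and -0.17. These are descriptions over libraries that share depth and composition, and the split by G3bp1 was chosen after the values were seen.

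**Figure D3:**
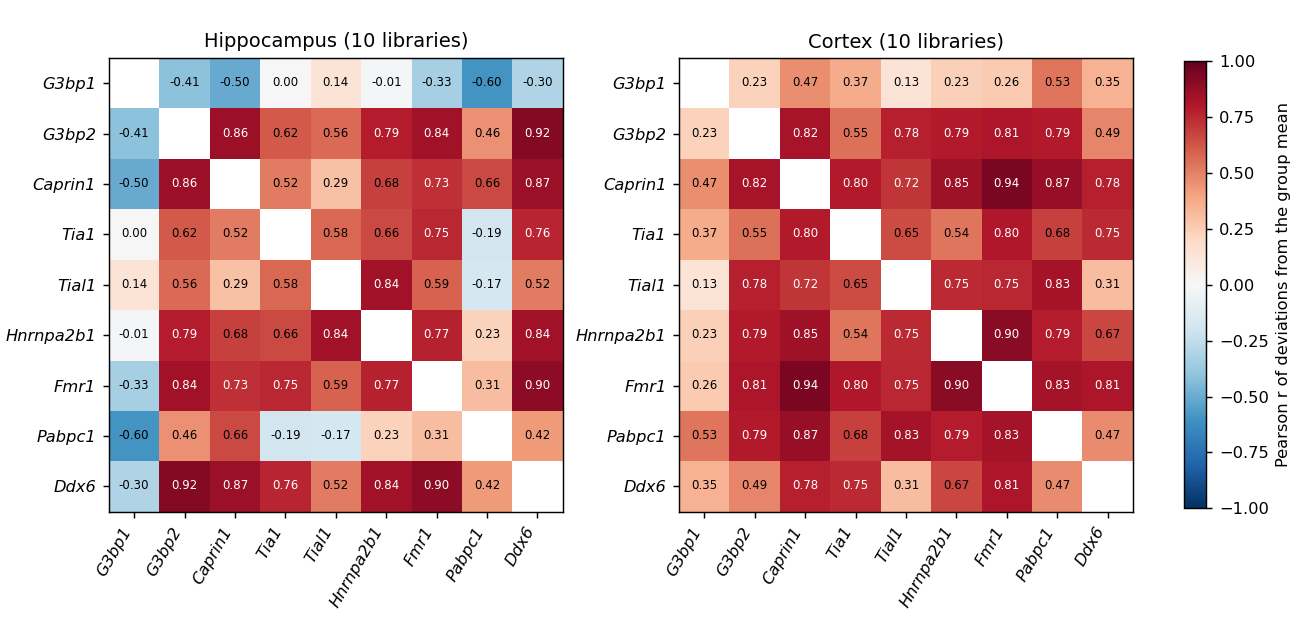
Pearson r between members of their deviations in log2 CPM from the group mean, over the 10 hippocampal (left) and 10 cortical (right) libraries. Most cells are red, and the row and column of G3bp1 hold values between -0.60 and 0.14 in hippocampus and between 0.13 and 0.53 in cortex.

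The same libraries were high or low for most members. HSP70 replicate 1 was above its group mean in 9 of 9 members in hippocampus and 9 of 9 in cortex, by 0.36 and 0.43 on the log2 scale on average. YB-1 cortex replicate 5 was also above in 9 of 9, by 0.33. YB-1 cortex replicate 4 was below in 9 of 9, with a mean deviation of -0.58, and HSP70 hippocampus replicate 5 was below in 8 of 9, with a mean deviation of -0.41, G3bp1 being the exception. Over all genes tested, 47.4% to 54.1% were above the group mean in a library. The 2 low libraries had few detected genes and much Bc1: YB-1 cortex replicate 4 had 6414215 assigned reads, 17504 genes with a read and 15.5% Bc1, and HSP70 hippocampus replicate 5 had 7860825 reads, 16889 genes and 20.3% Bc1. The Bc1 share and the members did not move together in every library. YB-1 hippocampus replicate 4 held the highest share of all, 20.8%, and was above its group mean in 7 of 9 members, by 0.13 on average. YB-1 hippocampus replicate 3 was below in 8 of 9, with a mean deviation of -0.23, and held 6.58% Bc1.

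**Figure D4:**
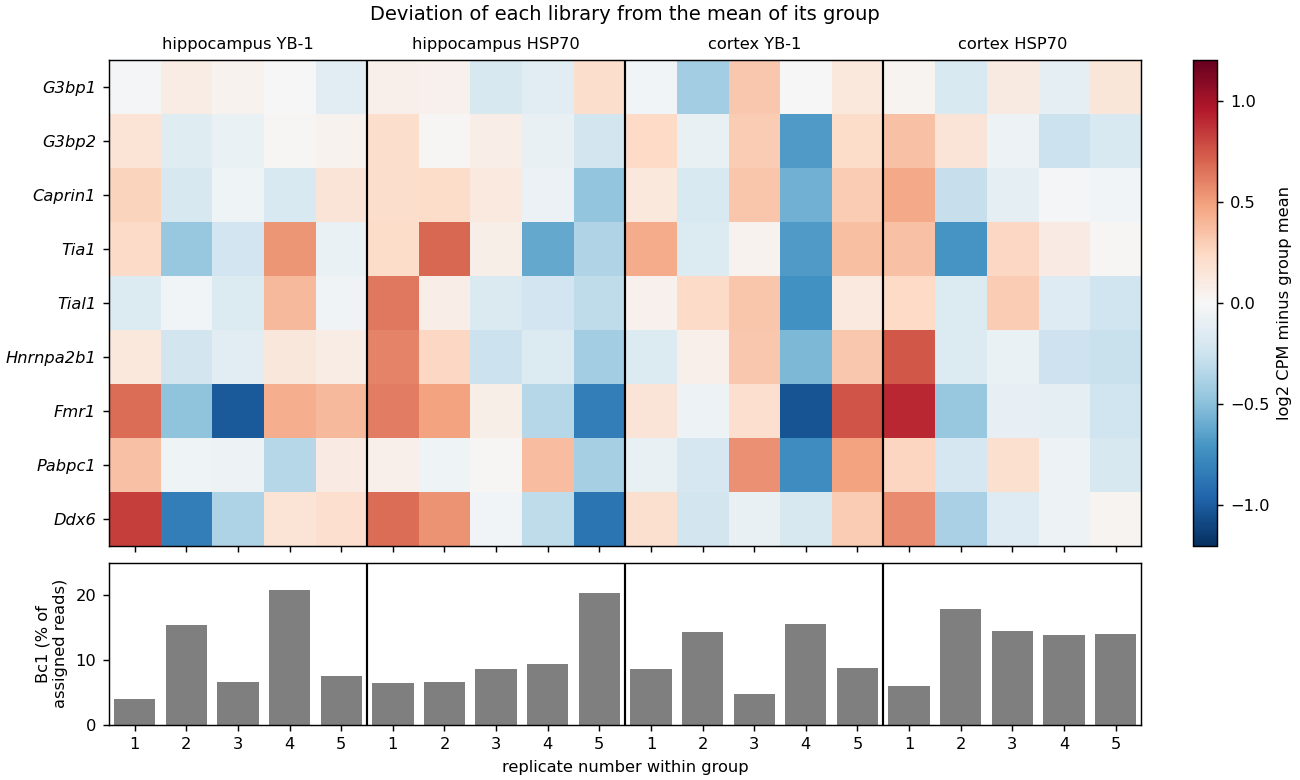
Deviation in log2 CPM of each member from its group mean in the 20 libraries (top, red above and blue below, replicate number along the horizontal axis) with the share of assigned reads from Bc1 in the same library (bottom, in percent). Columns are mostly of 1 colour, apart from the G3bp1 row, and YB-1 cortex replicate 4 is the bluest column.

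Caprin1 followed the Bc1 share most closely. Its Pearson r with the log2 Bc1 share, after removal of group means, was -0.88 over the 10 hippocampal libraries (exact permutation p = 0.00132, adjusted 0.0246 over 14616 genes) and -0.91 over the 10 cortical libraries (exact permutation p = 0.000208, adjusted 0.0621). Spearman's rho was -0.92 (exact permutation p = 0.00153) and -0.98 (exact permutation p = 0.000347), and without the 2 libraries farthest from the median of the Bc1 share r was -0.82 and -0.93. Negative relations that passed the adjusted test were found for 4.72% of genes in hippocampus, Caprin1 alone among the members, and for 0% in cortex; positive ones were found for 8.34% and 0% of genes and no member. In hippocampus G3bp1 at 0.35 and Tial1 at 0.01 were above 0, and the 6 others ran from -0.75 for Pabpc1 to -0.24 for Tia1. In cortex the 8 others ran from -0.81 for Hnrnpa2b1 to -0.60 for Tial1. The part of the Bc1 share in the shared variation was not tested, and both come from the same libraries.

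The genes nearest to each member over the 20 libraries, by r of deviations from group means, were named as a description. They were Hnrnpu at 0.94 and Ncl at 0.93 for Hnrnpa2b1, Rab10 at 0.96 and Sec23a at 0.96 for Caprin1, and Lmbrd2 at 0.96 and Alcam at 0.95 for Ddx6. Hnrnpu encodes another nuclear RNA-binding protein and Ncl encodes nucleolin. For Fmr1 they were Acap2 and Tnpo1, both at 0.92, for Pabpc1 Itprid2 and Fam120a, both at 0.92, and for G3bp2 Utp6 at 0.94 and Napg at 0.93. The values were lower for Tia1, with 9330162G02Rik at 0.90 and Pts at 0.86, for Tial1, with Clcn4 at 0.86 and Gmcl1 at 0.85, and for G3bp1, with Cyp20a1 at 0.83 and Gm15506 at 0.82.

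Other genes of granules and of the stress response that triggers them were likewise not called between treatments. Of 26 further stress granule genes, 26 genes of processing bodies and decay, 22 tested of 23 transport granule genes and 14 genes of the eIF2 kinases and the integrated stress response, 0 were called by edgeR in hippocampus and 0 in cortex, and 2 of 88 in hippocampus and 5 of 88 in cortex had an unadjusted p under 0.05, against 2.4% and 5.48% of all genes. Medians of the log2 fold change, YB-1 over HSP70, were 0.00, 0.01, 0.00 and -0.04 in hippocampus and -0.06, -0.01, -0.09 and 0.02 in cortex. The genes named for each tissue are those of each list with the lowest unadjusted p.

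In hippocampus the lowest p was that of Taf15, an RNA-binding protein, at 18.2 ± 1.57 CPM with YB-1 and 12 ± 4.45 CPM with HSP70 (SD, n = 5 each; log2 fold change 0.60 ± 0.23, SE; edgeR adjusted p = 1). Atxn2l, another stress granule gene, was at 0.19 ± 0.14 on the log2 scale (SE). Among transport granule genes Pura, a single-stranded nucleic acid binding protein, had 42.0 ± 8.47 CPM with YB-1 and 31.8 ± 7.40 CPM with HSP70 (log2 fold change 0.40 ± 0.18, SE; edgeR adjusted p = 1), followed by Nufip1 at 0.35 ± 0.17 and the double-stranded RNA-binding protein gene Stau2 at -0.20 ± 0.13. For processing bodies they were the Argonaute partner gene Tnrc6a at 0.36 ± 0.19, Lsm14a at -0.24 ± 0.17 and the deadenylase subunit gene Cnot2 at 0.21 ± 0.17. For the integrated stress response they were the eIF2 kinase genes Eif2ak2 at 0.61 ± 0.39 and Eif2ak3 at -0.33 ± 0.22, and Trib3 at 0.78 ± 0.51, with a mean of 1.33 CPM with YB-1 and 0.779 CPM with HSP70. All had an adjusted p of 1 by edgeR.

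In cortex the lowest p was that of Cpeb4, a cytoplasmic polyadenylation factor, at 6.81 ± 2.29 CPM with YB-1 and 12.8 ± 6.71 CPM with HSP70 (SD, n = 5 each; log2 fold change -0.89 ± 0.31, SE; edgeR adjusted p = 0.858). The next transport granule genes were Purg at -0.62 ± 0.23 and Syncrip, an hnRNP of transport granules, at -0.50 ± 0.21. Ubap2l, a stress granule factor that binds G3BP, had 80.8 ± 14.0 CPM with YB-1 and 60.2 ± 10.5 CPM with HSP70 (log2 fold change 0.42 ± 0.16, SE; edgeR adjusted p = 0.858), and Atxn2l was at 0.30 ± 0.13. For processing bodies they were the decapping factor gene Dcp1b at 0.42 ± 0.22, Lsm14b at -0.33 ± 0.19 and Cnot3 at 0.26 ± 0.17. For the integrated stress response they were Ppp1r15b, which encodes a subunit of an eIF2 phosphatase, at -0.31 ± 0.18, and the transcription factor genes Atf4 at -0.26 ± 0.16 and Ddit3 at 0.27 ± 0.17. Adjusted p ran from 0.858 to 0.864 for these genes by edgeR.

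Between tissues, transport granule genes were more often lower than higher in hippocampus. By edgeR 6 of 22 were called lower, against 7.32% of all genes, and 2 higher, against 8.55%, and the median log2 fold change was -0.21, against 0.00 over all genes. The lists were chosen with earlier results of these data known, so these shares are a description and not a test. The kinesin gene Kif5a had 985 ± 178 CPM in hippocampus and 1555 ± 322 CPM in cortex (SD, n = 10 each; log2 fold change -0.66 ± 0.12, SE; edgeR adjusted p = 0.000239). Elavl4, a neuronal AU-rich element binding protein, had 15.7 ± 5.17 CPM in hippocampus and 28.2 ± 4.82 CPM in cortex (log2 fold change -0.85 ± 0.17, SE; edgeR adjusted p = 0.00064). Pura had 36.9 ± 9.22 CPM in hippocampus and 52.8 ± 12.1 CPM in cortex (log2 fold change -0.53 ± 0.13, SE; edgeR adjusted p = 0.0054). The other 3 called lower were Purb, Cyfip2 and Elavl3, and the 2 higher were Cpeb1 at 0.32 and Cyfip1 at 0.30 on the log2 scale. With each of the 20 libraries left out in turn, the count lower was 5 or 6, as the call of Cyfip2 held in 17 of the 20 fits, while the count higher ran from 0 to 2, as Cpeb1 was called in 18 of the 20 fits and Cyfip1 in 6. The neuron marker sums given above moved the same way as the genes that fell, and the oligodendrocyte sums moved the other way. The part of these sums was not tested. The other lists held few calls: Eif4a1 rose by 0.30 on the log2 scale among 26 stress granule genes (edgeR adjusted p = 0.0136), Tnrc6a fell by 0.42 among 26 processing body genes (edgeR adjusted p = 0.0327) and Atf4 fell by 0.29 among 14 genes of the integrated stress response (edgeR adjusted p = 0.0363). With 1 library left out, Eif4a1 was called in 20 of 20 fits, Tnrc6a in 13 and Atf4 in 11. The next genes of these lists by p were Fxr2 at 0.18 and Usp10 at 0.18 for stress granules, Ago1 at 0.27 and Edc4 at 0.23 for processing bodies, and Atf5 at 0.25 and Eif2ak2 at -0.49 for the integrated stress response, with adjusted p from 0.0719 to 0.264 by edgeR. With library totals in place of TMM, 3 transport granule genes were called lower, against 5.36% of all genes, and 0 higher, against 10%. The calls of Tnrc6a and Atf4 were lost. Without the filter on low counts, with 29216 genes tested, the calls of Eif4a1, Cpeb1, Cyfip1 and Atf4 were lost, with adjusted p of 0.0640, 0.110, 0.104 and 0.0879 by edgeR.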

How the data were processed

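The 20 RNA libraries form 4 groups of 5 that the labels define by tissue and treatment. Libraries of a group are separate samples by their labels, but the labels name no animals, so p-values measure the spread between these samples, which may be in part technical. The authors deposited raw counts, with 1 table of Ensembl genes for each library. Reads were trimmed, aligned and counted with Trimmomatic, STAR and featureCounts on GRCm39, per the submitters' processing notes. Not given in the sources used here are their versions, the annotation release, the strand setting and what was done with multi-mapping reads. Per the labels' protocols the library kit was directional and RNA had an integrity number of at least 8. Reads of G3bp2 and of the antisense Gm26582, which share 2050 exon bases, cannot be told apart without a known strand setting.

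Another 12 entries are summaries without a gene and entered neither the library sizes nor the tests. Of these, unassigned reads with no feature were 2.45% to 4.58% of a library and ambiguous ones 4.12% to 4.58%. Symbols and exon lengths came from GENCODE M21, an annotation of GRCm38, matched by identifier; a symbol was found for 99.5% of identifiers and 99.99% of reads. The chi-square of the counts of any pair of libraries in a group was at least 10.8 per degree of freedom, so none was a copy of another within counting error. Libraries prepared separately from the same sample would not be found this way.

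The gene tests were those of edgeR 4.0.16 under R 4.3.3 (TMM, filterByExpr, robust quasi-likelihood fit, two-sided F-test, Benjamini-Hochberg over all genes tested, threshold 0.05). Treatments were compared within a tissue, and tissues and the interaction in a model of all groups. Standard errors are the fold change over the root of F. Log2 CPM used a prior count of 2. Ratios of counts had 0.5 added to each. Between treatments they were compared by exact permutation over 252 assignments. Between tissues they were compared by sign flips over the 10 same-numbered pairs, with 1024 assignments. Correlations between tissues and with Bc1 were tested over 14400 permutations within treatment. The scripts were tested on simulated data. Alternatives were RLE factors, library totals, no filter, DESeq2 1.42.0, limma-voom 3.58.1 with quality weights, thinning to the shallowest library, exclusion of Bc1 and immunoglobulin genes, the replicate block, each library left out, and a Bc1 covariate.

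Whether replicate numbers pair libraries was checked by correlating deviations from group means over 14616 genes. All 10 same-numbered pairs of a hippocampal and a cortical library exceeded 0.1 (0.207 to 0.394 with YB-1, 0.198 to 0.624 with HSP70). The own number was the best match in 4 of 5 pairs with YB-1 and 5 of 5 with HSP70. For YB-1 number 1 the best match was number 5. The numbers in the titles were therefore taken to pair the tissues, which the labels do not state. These correlations cannot tell libraries of 1 animal from libraries that share a number for another reason. Number 1 of YB-1 and of HSP70 hippocampus, given different treatments, also correlated, at 0.496. Between treatments 1 of 5 same-numbered pairs exceeded 0.1 in hippocampus (-0.283 to 0.496) and 3 of 5 in cortex (-0.135 to 0.167). The numbers were not taken to pair treatments.

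The members and gene lists were chosen with earlier results of these data known. The genes named are all members, the 3 genes of each list with the lowest p in each of the treatment and tissue comparisons (1 of them is not reported here), and the 2 genes nearest to each member; other called list genes were named after their values were seen.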

Additional observations from a re-analysis of the deposited data

Results flagged for a closer look

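Of 44 groups of 5 values examined for a library far from the rest, 3 were flagged, where chance gives about 1 in 20 groups. Tial1 stood at 15.2 CPM in YB-1 hippocampus replicate 4, where the other 4 libraries held 10.3 to 11.2 CPM. Hnrnpa2b1 stood at 134 CPM in HSP70 cortex replicate 1, where the others held 66.6 to 75.7 CPM. Fmr1 stood at 17 CPM in the same library, where the others held 6.54 to 8.43 CPM. In each the gap to the nearest library exceeded 0.71 of the range of the group, Dixon's critical value for 5 samples. No member differed between tissues in its treatment effect by edgeR's interaction test.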

How the results depend on the processing

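No treatment, tissue or interaction call of a member changed under any alternative except 1, and the directions of members near 0 were not stable. Leaving out 1 library at a time moved the log2 fold change, YB-1 over HSP70 in hippocampus, of G3bp1 from -0.0792 to 0.0266, Tia1 from -0.0064 to 0.36, Caprin1 from -0.10 to 0.0576, Pabpc1 from -0.15 to 0.048 and Ddx6 from -0.33 to 0.12. In cortex it moved G3bp2 from -0.13 to 0.0723, Tia1 from -0.26 to 0.0055, Hnrnpa2b1 from -0.27 to 0.0494, Fmr1 from -0.47 to 0.059, Pabpc1 from -0.0347 to 0.26 and Ddx6 from -0.23 to 0.0301, where HSP70 replicate 1 or YB-1 replicate 3, 4 or 5 gave the turn. Hippocampus over cortex it moved G3bp2 from -0.049 to 0.0629 and Hnrnpa2b1 from -0.11 to 0.0931, and for the interaction G3bp2 from -0.14 to 0.0594, Caprin1 from -0.0031 to 0.21 and Ddx6 from -0.19 to 0.25. The log2 ratio differences moved as follows in hippocampus: G3bp2/G3bp1 from -0.15 to 0.0257 and Tial1/Tia1 from -0.17 to 0.0905; in cortex G3bp2/G3bp1 from -0.0048 to 0.25; between tissues G3bp2/G3bp1 from -0.13 to 0.0065 and Tial1/Tia1 from -0.051 to 0.15. Without a turn of sign, hippocampal values moved from 0.014 to 0.33 for Tial1, from 0.14 to 0.42 for Hnrnpa2b1 and from 0.13 to 0.50 for Fmr1. The tissue correlation ran from -0.37 to 0.19 for G3bp1, from -0.70 to 0.45 for Tial1, from -0.23 to 0.67 for Hnrnpa2b1, from -0.15 to 0.41 for Fmr1 with 1 pair left out. Of the lists, leaving out 1 library moved counts between tissues only, an alternative added after seeing the data: processing body genes from 0 to 1 higher and 0 to 2 lower, transport granule genes from 0 to 2 higher and integrated stress response genes from 0 to 1 lower. Over all genes these fits called 7.57% to 8.71% higher and 6.46% to 7.88% lower.

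Other settings turned the sign of 21 values, none of them called. For Caprin1 in hippocampus the log2 fold change was -0.0024 with RLE factors, -0.0378 with library totals, -0.0007 without the filter, -0.0025 by DESeq2, -0.0312 by limma-voom and -0.0157 after thinning. Limma-voom gave G3bp1 0.004 in hippocampus, in cortex G3bp2 0.0889, Tia1 0.0721, Fmr1 0.0296 and Ddx6 0.0511, Hnrnpa2b1 0.0726 between tissues, and for the interaction Tia1 -0.0519, Caprin1 -0.0339 and Ddx6 -0.258. Library totals gave Hnrnpa2b1 0.0094 between tissues, and no filter gave G3bp2 0.0057 for the interaction. The cause was not tested. Per longest transcript the levels were 48.3 RPKM for Pabpc1, 35.5 for G3bp2, 21.3 for Hnrnpa2b1, 11 for Caprin1, 6.34 for Ddx6, 2.61 for Tial1, 1.75 for Tia1 and 1.74 for Fmr1, since the shorter length divides the same counts.

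The log2 Bc1 share as a covariate was chosen after seeing the data. It made Pabpc1 the 1 member called between tissues, and turned Pabpc1 to -0.1144 in cortex and G3bp2 to -0.02 between tissues and 0.0809 for the interaction. With it 273 of 14114 genes were called by edgeR between treatments in cortex, with 2 transport granule genes lower, against 1.4% of all genes. Between tissues 3604 were called, 13% of all genes higher and 11.6% lower. Between tissues it called 2 stress granule genes higher, 1 processing body gene higher and 2 lower, 1 integrated stress response gene higher and 1 lower, and 2 transport granule genes higher and 9 lower. Library totals called 2 stress granule genes higher, 1 processing body gene higher and 0 lower, 3 transport granule genes lower and 0 higher, and 0 integrated stress response genes lower. Of all genes they called 10% higher and 5.36% lower. Without the filter 0 stress granule and 0 transport granule genes were called higher and 0 integrated stress response genes lower, against 4% of all genes higher and 3.68% lower.

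With the replicate block, which pairs the tissues by replicate number, 0 members were called in each comparison, so it changed no member's call. G3bp2 turned to 0.0131 for the interaction. With the block 8 transport granule genes were lower between tissues in place of 6, while the share of all genes called lower was 9.78% in place of 7.32%. Between treatments the numbers were not taken to pair the samples. Depth limits Fmr1, Tia1 and Tial1 most, with as few as 19, 25 and 33 reads in a library.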
